A study of Homo sapiens with 16 samples.

Results

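Keratins are the intermediate filament proteins of epithelial cells. The 55 keratin genes described here are all protein-coding genes of GRCh38 whose symbol is KRT followed by a number and at most 1 letter, out of 19974 protein-coding genes on chromosomes 1 to 22 and X. They lie in 2 clusters, with 27 genes (the type II keratins and, at one edge, the type I gene KRT18) over 784 kb of chromosome 12 and 28 type I genes over 970 kb of chromosome 17. They were sorted by where each keratin is known to be made: 5 simple keratins of single-layered epithelia, 4 basal keratins of the deepest layer of stratified epithelia, 4 stress keratins, 9 keratins of differentiated stratified epithelium, 9 of the inner root sheath and companion layer of hair follicles, 17 hair keratins and 7 others.

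ATAC-seq, an assay whose transposase inserts sequencing adapters into accessible DNA, was used to map open chromatin in MDA-MB-231, an established human breast adenocarcinoma line of mesenchymal character with the genotype WT in the labels. There were 4 groups of 4 samples: ancestral cells on soft gel (1 kPa), ancestral cells on stiff gel (308 kPa), and cells labelled as selected on soft and selected on stiff, all on collagen-coated polyacrylamide. Selection ran for 75 days of repeated replating on a gel of one stiffness; the protocol names both stiffnesses while the design text speaks of cells selected on soft gel, so the gel on which the cells of the selected stiff group were selected is not settled by the labels. The deposited data are 1 peak list per group and not per sample. No spread between replicates can therefore be computed, no difference below is a test result, and intervals cover counting error only.

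A type I keratin pairs with a type II keratin, and the pairs assemble into filaments that join the nucleus to cell junctions. KRT8 with KRT18 is the pair of simple epithelia and luminal breast cells, KRT5 with KRT14 that of basal epithelial and myoepithelial cells, KRT1 with KRT10 that of differentiating epidermis, and the hair keratins build the hard hair shaft. A peak reports open DNA, which is not a measure of transcription.

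The value given for each gene is the pileup, the height of the stacked signal at a peak's summit, divided by the median pileup of its own list. This value is called the relative pileup, and 1 is a typical peak of that list. Pileups are quoted as fragments, and the counting intervals treat them as counts. Whether the unit is fragments or single reads is not stated in the sources used here. A gene has a peak when a summit falls in its body or within 5 kb of it, and its value is that of its strongest peak. Values stand in the order ancestral soft, ancestral stiff, selected soft, selected stiff. The lists hold 109578, 116043, 129755 and 122591 peaks with a median pileup of 111, 132, 51 and 56, and their weakest peaks stand at a relative pileup of 0.279, 0.280, 0.529 and 0.464, so a weak site can be listed in ancestral cells at a level that no peak of a selected list reaches. In each list about 1.00% of the running peak numbers are skipped, each within a stretch longer than any listed peak; KRT7, KRT15 and KRT19 meet such a stretch in all 4 lists, as 3.92% of all genes do, and KRT8 in both ancestral lists. Absence of a peak there is called undetermined.

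Promoters are shown for 5 genes that stand for the classes: KRT8, whose promoter met a peak in all 4 lists, alone among the 34 keratin promoters of the table used; KRT79, met by a peak in the selected stiff list; and KRT5, KRT34 and KRT10, a basal, a hair and a differentiated keratin whose promoters met no peak. Each is the 250 bases before the annotated start, read 5′ to 3′ on the minus strand, from RefSeq on GRCh38.p14: KRT8 at chr12:52926470-52926719, KRT79 at chr12:52834312-52834561, KRT5 at chr12:52520395-52520644, KRT34 at chr17:41382307-41382556 and KRT10 at chr17:40822615-40822864. The KRT8 and KRT34 promoters lie inside the annotated spans of these genes, so the start used there is not the outer end of the span. Capitals mark the letters TATAAA of a TATA box or CACCTG of an E-box, on either strand.
KRT8: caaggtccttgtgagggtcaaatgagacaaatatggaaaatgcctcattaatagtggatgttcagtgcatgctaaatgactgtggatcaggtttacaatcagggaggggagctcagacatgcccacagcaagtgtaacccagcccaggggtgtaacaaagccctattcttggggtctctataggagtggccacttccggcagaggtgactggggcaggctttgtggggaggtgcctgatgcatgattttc
KRT79: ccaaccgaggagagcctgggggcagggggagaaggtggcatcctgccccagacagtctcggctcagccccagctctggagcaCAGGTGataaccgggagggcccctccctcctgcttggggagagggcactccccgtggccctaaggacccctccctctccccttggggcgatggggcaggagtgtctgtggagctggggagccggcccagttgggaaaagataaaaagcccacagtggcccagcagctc
KRT5: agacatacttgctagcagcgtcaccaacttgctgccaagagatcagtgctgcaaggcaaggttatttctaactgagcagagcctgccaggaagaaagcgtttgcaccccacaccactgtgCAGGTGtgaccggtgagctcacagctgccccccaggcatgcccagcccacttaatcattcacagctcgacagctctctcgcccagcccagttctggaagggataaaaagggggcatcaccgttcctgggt
KRT34: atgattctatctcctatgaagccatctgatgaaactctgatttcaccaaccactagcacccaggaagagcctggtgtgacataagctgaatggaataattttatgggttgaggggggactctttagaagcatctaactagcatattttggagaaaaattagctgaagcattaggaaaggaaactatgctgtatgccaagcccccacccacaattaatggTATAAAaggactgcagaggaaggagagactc
KRT10: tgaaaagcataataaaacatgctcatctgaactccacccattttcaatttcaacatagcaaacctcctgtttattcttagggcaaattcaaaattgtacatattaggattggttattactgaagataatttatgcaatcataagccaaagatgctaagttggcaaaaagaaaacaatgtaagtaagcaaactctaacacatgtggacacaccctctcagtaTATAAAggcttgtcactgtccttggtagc

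The RefSeq promoter table held 34 of the 55 keratins. Peaks overlapped 1, 1, 1 and 2 of these promoters by at least 1 base, against 65.7%, 66.4%, 67.5% and 68.7% of all 15813 protein-coding promoters in the table. The summit nearest the KRT8 promoter lay 972 bases from the start in 3 lists and 993 bases in selected cells on soft gel. The letters TATAAA occurred in 20 of the 34 keratin promoters and in 9.25% of all promoters, and the GC box GGGCGG, read by SP1 and KLF factors, in 4 of 34 and in 56.0%. The AP-1 letters TGANTCA occurred in 0 of 34 keratin promoters and 5.05% of all, the TEAD letters CATTCC in 3 and 10.1%, and the E-box CACCTG in 6 and 17.1%, each searched on both strands with no overlap between different motifs required or removed. The median GC content was 44.6% for the keratin promoters and 62.4% for all promoters. The keratin promoters in the table thus held fewer G and C bases and more often TATAAA than promoters at large, and no relation between these letters and the peaks was tested. The share of keratin promoters with a peak is not that of all keratins, since the 21 genes outside the table include most of those with a peak near a gene end. Some base of a peak lay no more than 1 kb from an annotated end for 4, 5, 4 and 5 of the 34 tabulated genes and for 10, 11, 10 and 10 of the other 21, such as KRT80, KRT7, KRT18, KRT16 and KRT17.

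Keratin genes had a peak less often than other genes. A peak was listed for 28, 32, 25 and 29 of the 55 genes, or 50.9% (95% exact Clopper-Pearson interval 37.1 to 64.6), 58.2%, 45.5% and 52.7%, while 86.6%, 87.2%, 86.9% and 86.9% of all protein-coding genes had one. Other protein-coding genes within 5 Mb of the clusters had one in 84.3% to 87.5%. The window favours long genes, and keratin genes are short, with a median length of 6.43 kb against 24.2 kb for all genes. The part of gene length in this gap was not tested. At gene ends, 14, 16, 14 and 15 keratins had some base of a peak no more than 1 kb from an annotated end, against 72.8%, 73.7%, 76.1% and 75.9% of all genes. A summit lay inside the gene body of 13, 16, 15 and 16 keratins, against 66.8%, 69.2%, 70.0% and 69.5% of all genes.

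Of the 55 genes, 23 had a peak in all 4 lists (41.8%, against 82.8% of all genes) and 22 in none (40%, against 9.44%). The genes with no peak anywhere include KRT20, a simple keratin of the gut, KRT6C, KRT1 and KRT2 of the epidermis, KRT3 and KRT4 of cornea and mucosa, KRT9 of palms and soles, KRT71 and KRT74 of the inner root sheath, and the hair keratins KRT83, KRT31, KRT33A and KRT40. The 3 pairs that define epithelial compartments were thus unlike one another: both partners of the simple pair KRT8 and KRT18 carried strong peaks, in the basal pair KRT14 had a peak in every list and KRT5 a faint one in a single list, and in the epidermal pair KRT10 had a peak and KRT1 none.

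**Figure D1:**
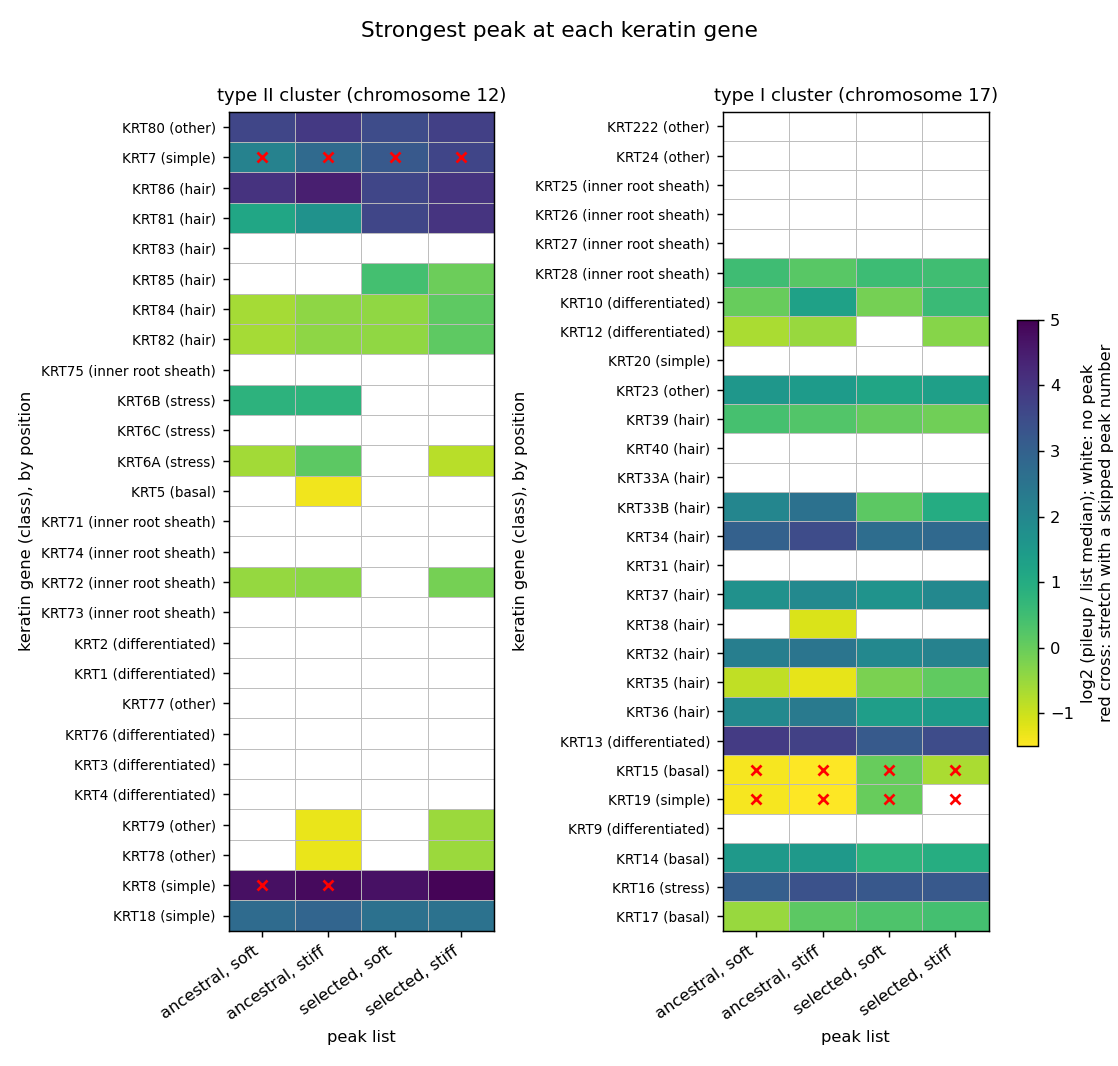
Strongest peak at each of the 55 keratin genes, with genes in order of position as rows and the 4 peak lists as columns; colour gives the log2 relative pileup, white means no peak within 5 kb and a red cross a stretch with a skipped peak number. KRT8 is darkest in every list, and the run from KRT73 to KRT4 is white throughout.

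The classes differed in how many members had a peak and in how high it was. Simple keratins had a peak in 4, 4, 4 and 3 of 5, with a median relative pileup of 4.40, 6.80, 5.96 and 5.82 when a gene without a peak is entered at 0; the median over all protein-coding genes was 5.93, 7.25, 5.39 and 6.46. Basal keratins had one in 3, 4, 3 and 3 of 4, with medians of 0.545, 0.746, 1.13 and 0.991. Hair keratins had one in 11, 12, 12 and 12 of 17, with medians of 0.649, 0.758, 1.02 and 1.09. By this measure the simple keratins stood near the level of genes at large, and the basal and hair keratins near or below a typical peak. The simple counts include KRT19, which is undetermined, and the ancestral simple medians are the values of KRT7, whose window meets a skipped number; with the gene body alone these medians were 0.514 and 0.727. Stress keratins had a peak in 3, 3, 1 and 2 of 4, differentiated keratins in 3, 3, 2 and 3 of 9, inner root sheath keratins in 2, 2, 1 and 2 of 9 and the others in 2, 4, 2 and 4 of 7. The exact intervals of classes this small are wide, for example 28.4% to 99.5% for 4 of 5 simple keratins and 38.3% to 85.8% for 11 of 17 hair keratins, and they overlap between these classes.

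**Figure D2:**
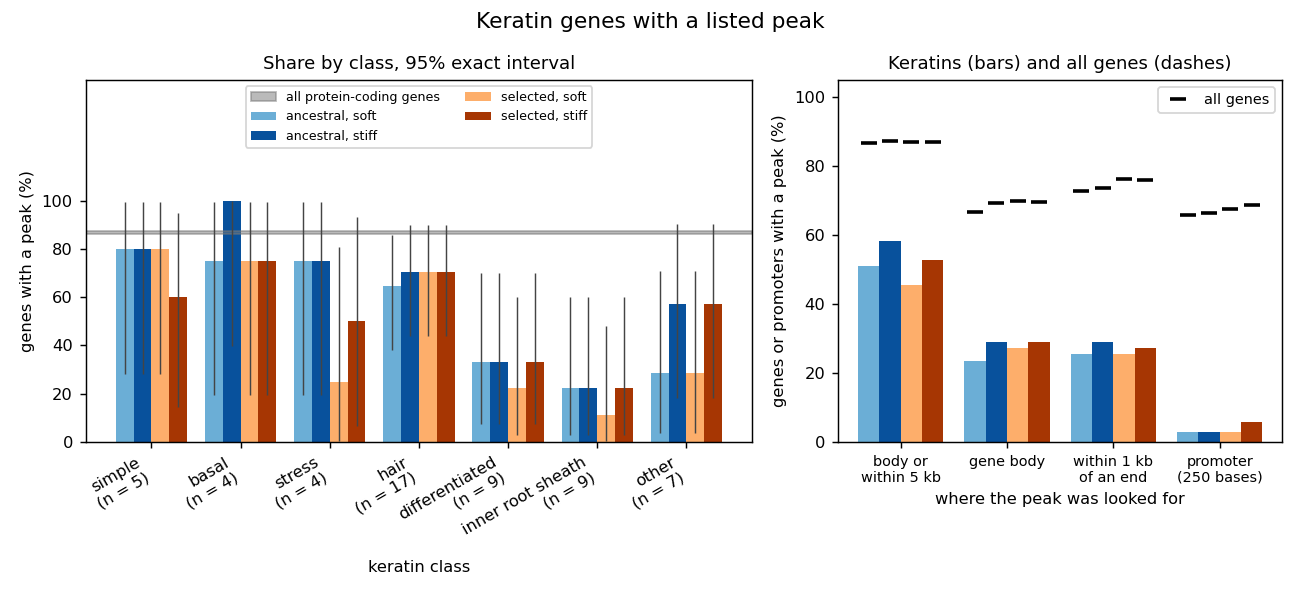
Left, the percentage of genes in each keratin class with a peak in the 4 lists, with 95% exact intervals as vertical lines and the level of all protein-coding genes as a grey band; right, the same percentage for all keratins (bars) and all genes (dashes) by where the peak was looked for. The bars fall below the dashes in all 4 lists and at all 4 places; the promoter bars cover the 34 tabulated keratins.

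Among the simple keratins, KRT8 (chr12:52897191-52949860), the type II partner of KRT18, had the highest listed peak of any keratin. Its relative pileup was 26.6, 28.6, 26.2 and 30.8, from pileups of 2952, 3778, 1334 and 1726 fragments. These stood above 99.4% to 99.5% of the peaks of their lists. The height of any peak at the skipped numbers near KRT7, KRT15 and KRT19 is not known, so the rank of KRT8 over these genes is undetermined. The counting intervals ran from 25.6 to 27.6 and from 27.7 to 29.5 in ancestral cells, and from 24.8 to 27.6 and from 29.4 to 32.3 in selected cells, so the populations overlapped on both gels. The peak lay inside the gene, in the merged region chr12:52924052-52928265, which contains the promoter printed above. A second region in the gene, chr12:52902902-52908889, stood at 12.5, 14.9, 13.1 and 16.5. Each was thus among the strongest listed sites of the cluster in every group, and none reached a 2-fold difference.

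KRT18 (chr12:52948855-52952906), whose gene overlaps the annotated end of KRT8, stood at 6.74, 7.52, 5.96 and 5.82. Its strongest summit lay inside the gene in the region chr12:52945092-52950584, which also touches KRT8, so the peak cannot be given to one gene alone. The values of selected cells were below those of ancestral cells on both gels, by less than 2-fold.

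KRT7 (chr12:52233243-52255853), a type II keratin of simple and ductal epithelia, had 2, 2, 7 and 7 peaks and a strongest value of 4.40, 6.80, 9.29 and 12.7. The rise rests on a peak inside the gene at chr12:52242385-52244954 that is listed in both selected lists alone, at 9.29 and 12.7. In ancestral cells that region lies within chr12:52235212-52268088 on soft gel and chr12:52236249-52267955 on stiff gel, stretches that each hold 1 skipped number, so its absence there is undetermined. At the end of the gene, the region chr12:52229768-52235290 was listed in all groups at 4.40, 6.80, 4.57 and 5.41. This was the only region at KRT7 that all 4 lists give. Selected cells stood slightly higher there than ancestral cells on soft gel and lower on stiff gel, each by less than 2-fold.

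KRT19 (chr17:41523617-41528308), a type I keratin used as a marker of luminal and ductal cells, lies wholly inside a stretch with a skipped number in all 4 lists. The value it receives, 0.378, 0.348 and 1.00 with no peak in the selected stiff list, comes from a weak peak more than 4 kb from the gene, at chr17:41518792-41520039 beside KRT15. The state of KRT19 itself is undetermined. KRT20 had no peak in any list.

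Among the basal keratins, KRT5 (chr12:52514575-52520394), the type II keratin of basal cells, had 1 peak in ancestral cells on stiff gel, 985 bases outside the gene, at 0.386, from a pileup of 51 fragments. That level lies below the weakest peak of either selected list, so the selected lists could not have shown it on this scale. KRT14 (chr17:41582279-41586895), its type I partner, stood at 2.83, 2.83, 1.73 and 1.98, with the counting intervals of selected cells (1.38 to 2.13 and 1.63 to 2.39) below those of ancestral cells (2.52 to 3.16 and 2.55 to 3.13). A weaker site inside KRT14 went the other way, at 1.09, 0.826, 1.51 and 1.36. The lower level at the KRT14 flank was thus not seen in the gene body.

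KRT17 (chr17:41619442-41624575), a basal keratin also induced in wounds, stood at 0.712, 1.11, 1.25 and 1.36, and its window held 3, 4, 6 and 8 peaks. KRT15 (chr17:41513745-41518890), a keratin of basal and hair follicle stem cells, stood at 0.378, 0.348, 1.00 and 0.625, with 1, 1, 2 and 3 peaks; its window meets the stretch with a skipped number. All these KRT15 and KRT17 peaks were near or below a typical peak of their lists. Weak regions of all genes were mostly higher as well. Of the 28387 regions below the list median in ancestral cells on soft gel that also had a peak in selected cells, 94.4% had a higher relative pileup in selected cells, and on stiff gel 87.4% of 29406. These regions were chosen by a low ancestral value, and no selected peak lies below 0.529 on soft or 0.464 on stiff gel. That choice by itself favours a higher selected value. The part of this in the values of KRT15 and KRT17 was not tested.

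The stress keratins are induced in wounded and fast-growing epidermis. KRT16 (chr17:41609778-41612767) stood at 8.39, 10.3, 9.41 and 9.23, from a peak 235 to 289 bases outside the gene. It was higher in selected cells on soft gel and lower on stiff gel, and the counting intervals overlapped on both gels (7.86 to 8.94 and 8.59 to 10.3 on soft, 9.73 to 10.8 and 8.45 to 10.1 on stiff). The type II genes KRT6A, KRT6B and KRT6C are near-identical copies, and how reads that match more than 1 copy were placed is not given in the sources used here, so their values are uncertain. KRT6B stood at 1.77 and 1.75 in ancestral cells, from a peak 3735 bases outside the gene, and had no peak in selected cells. KRT6A stood at 0.658 and 1.09 in ancestral cells and 0.571 in selected cells on stiff gel, with no peak in selected cells on soft gel, and KRT6C had none. The KRT6B site was well above the weakest listed peaks of the selected lists, and so is a difference that the floors of the lists do not set.

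Of the keratins of differentiated stratified epithelium, KRT13 (chr17:41500981-41505612), the type I keratin of mucosal epithelia, was the highest at 14.5, 13.3, 9.16 and 11.3, from a peak 4010 to 4034 bases outside the gene. A second region at the end of KRT13 stood at 9.35, 10.6, 6.98 and 7.98. Both were lower in selected than in ancestral cells on each gel, by less than 2-fold. KRT10 (chr17:40818117-40822614), the type I keratin of suprabasal epidermis, stood at 1.01, 2.41, 0.902 and 1.5 and was higher on stiff gel in both populations. KRT12, the type I keratin of the cornea, had a weak peak at 0.622 and 0.705 in ancestral cells and 0.804 in selected cells on stiff gel, and none in selected cells on soft gel. Among the inner root sheath keratins, KRT28 stood at 1.44, 1.14, 1.45 and 1.41, from a peak 3792 to 3801 bases outside the gene, and KRT72 at 0.721 and 0.773 in ancestral cells and 0.911 in selected cells on stiff gel, with none in selected cells on soft gel. The other 7 genes of that class had no peak.

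The hair keratins are the largest class, with a peak in 64.7% to 70.6% of members, a smaller share than for basal keratins and for all genes. KRT86 (chr12:52274645-52309163), a type II hair keratin with a long annotated gene, stood at 16.4, 21.8, 12.6 and 16.2, from a summit inside the gene in chr12:52278530-52281821. KRT81, which lies within the annotated span of KRT86, stood at 2.21, 3.27, 12.6 and 16.2, but this is an effect of the window: the summit of the KRT86 region sits 4867 bases outside KRT81 in the selected lists and just beyond the 5 kb limit in the ancestral lists. At the site inside KRT81 itself, chr12:52287826-52289506, the values were 2.21, 3.27, 1.84 and 2.14. KRT81, KRT83 and KRT86 are close copies, so reads may have been divided among them. KRT85, a type II keratin of the hair matrix, had a peak in selected cells alone, at 1.35 and 0.964, from 69 and 54 fragments, 3497 and 3612 bases outside the gene at chr12:52356064-52356904. KRT84 and KRT82, a tongue and a hair cuticle keratin, share 1 peak between them at 0.649, 0.758, 0.745 and 1.09.

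Among the type I hair keratins, KRT34 (chr17:41377669-41383816) was highest at 8.05, 11.3, 6.45 and 6.93, from a summit inside the gene about 2.08 kb from the promoter printed above. KRT33B (chr17:41363498-41369813) stood at 4.07, 5.91, 1.1 and 2.00. KRT32 followed at 4.77, 5.54, 3.90 and 4.34. KRT36 stood at 3.86, 5.07, 2.59 and 2.77. In each of these 4 genes both selected values lay below the ancestral value on the same gel. The KRT36 value comes from a peak 4782 to 4783 bases outside the gene. The strongest peak with a base no more than 1 kb from an end of KRT36 went the other way, at 0.541, 0.326, 0.882 and 1.05. KRT37 stood at 3.33, 3.84, 3.16 and 3.91, with almost equal values in both populations. KRT35 stood at 0.541, 0.417, 0.882 and 1.05, and KRT38 had 1 faint peak, at 0.455 in ancestral cells on stiff gel.

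Of the other keratins, KRT80 (chr12:52168996-52192014), a type II keratin found in many epithelia, stood at 12.4, 15.2, 11.5 and 13.5, from a peak 279 to 284 bases outside the gene, and its window held 9, 7, 10 and 8 peaks. KRT23 stood at 2.93, 2.77, 2.27 and 2.57. KRT78 and KRT79, neighbours in the type II cluster, had a peak on stiff gel alone, at 0.409 in ancestral and 0.696 in selected cells, but the ancestral peak lies between the genes at chr12:52837333-52837897 and the selected one at chr12:52834297-52834715 over the KRT79 promoter. A second, weaker ancestral peak lies inside KRT78, at 0.394. The same entry for both populations thus stands for different weak sites.

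On soft gel, selected cells had a peak at 1 keratin gene without one in ancestral cells, KRT85, where 2.87% of all genes had such a gain. KRT6B, KRT6A, KRT72 and KRT12 had a peak in ancestral cells alone, 4 of 55, where 2.56% of all genes did. On stiff gel, KRT85 was again the 1 gene with a peak in selected cells alone (2.3% of all genes), and KRT6B, KRT5, KRT38 and KRT19 had one in ancestral cells alone (4 of 55, against 2.53%). The KRT19 entry is undetermined, and the KRT5 and KRT38 peaks lie under the weakest peak of the selected list. KRT6B and KRT85 are therefore the genes whose entry differs between populations on both gels and whose levels exceed the floor of the lists without them. Counting only peaks above the highest of the 4 floors, a setting added after the data were seen, turns the stiff counts to 5 genes in selected and 1 in ancestral cells alone. The KRT85 entry is lost when a neighbouring region that touches the window by any base is counted.

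Between gels, ancestral cells had a peak on stiff gel alone at KRT5, KRT79, KRT78 and KRT38 (4 of 55, where 1.54% of all genes did) and on soft gel alone at none (0.926% of all genes). All 4 stood at 0.386 to 0.455, and with peaks above the highest of the 4 floors alone none is left. Selected cells had a peak on stiff gel alone at KRT6A, KRT72, KRT79, KRT78 and KRT12 (5 of 55, against 1.57%) and on soft gel alone at KRT19 (1 of 55, against 1.5%), which is undetermined. These 5 stood at 0.571 to 0.911, below a typical peak. The entries that differed with the gel were thus weak peaks for these genes, but a second peak of a gene does not enter this count: the region chr17:41367458-41368372 inside KRT33B stood at 1.67 and 1.99 in ancestral cells and 1.80 in selected cells on stiff gel and had no peak in selected cells on soft gel.

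Merging overlapping peaks of the 4 lists gave 73 regions at keratin genes out of 164016, of which 14 serve more than 1 keratin. A peak in all 4 lists was found for 35 (47.9%, against 43.7% of all regions). Both selected lists alone held 12 (16.4%, against 9.72%) and both ancestral lists alone 2 (2.74%, against 6.39%). Of the 12, 6 at KRT7 and KRT8 are undetermined, so the share of 16.4% is not settled. Each ancestral stretch at these genes holds 1 skipped number, and how many of the 6 regions the missing peaks could cover is not known. Regions listed in 1 or both selected lists and no ancestral one numbered 16 (21.9%, against 28.5%), the same 6 undetermined ones among them. The other 10 reached at most 1.35. Of these 10, 3 lie at KRT15 and 2 at KRT17. The 11 regions in ancestral lists alone (15.1%, against 14.5%) reached at most 1.77, and 4 of them lay above the floors of both selected lists. No determined region that appeared or disappeared with selection was thus more than a moderate peak.

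**Figure D3:**
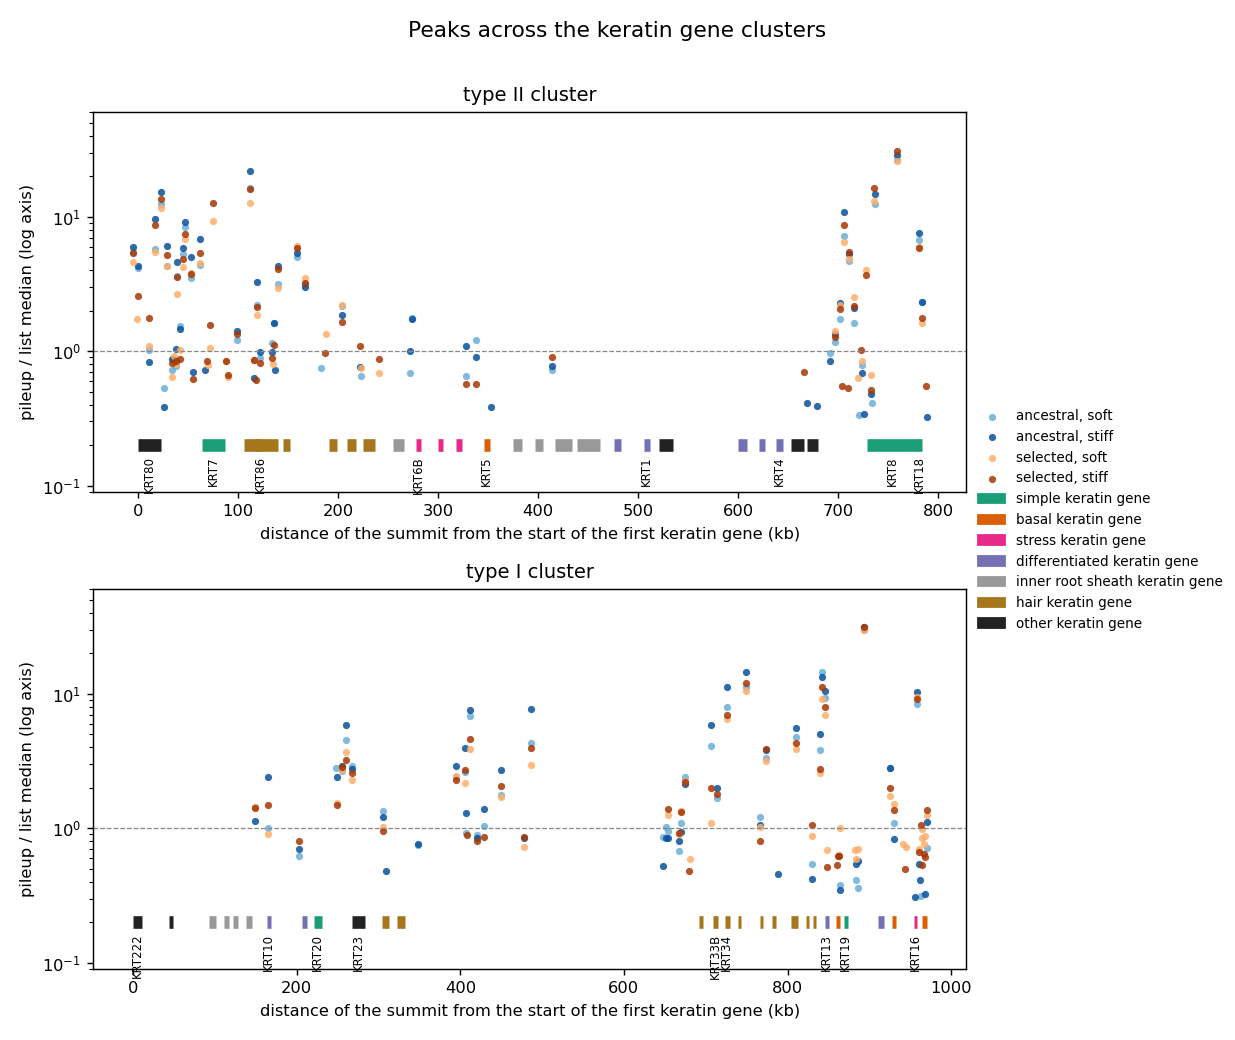
Every peak across the type II cluster (top) and the type I cluster (bottom), with the distance of its summit from the start of the first keratin gene in kb and its relative pileup on a log axis; points are coloured by list and keratin genes are drawn as bars coloured by class. Peaks gather at both ends of the type II cluster, and the stretch from KRT72 to KRT4 holds none.

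The regions with a peak in both lists of a comparison differed little. On soft gel, 2 of 36 keratin regions were at least 2-fold higher in selected cells (13.2% of all regions) and 3 at least 2-fold lower (1.88%). On stiff gel, 3 of 45 were higher (8.38%) and 1 lower (2.57%). The largest decrease was at KRT33B, in chr17:41360316-41361131, 2674 to 2747 bases outside the gene, where pileups of 452, 780, 56 and 112 fragments gave a log2 ratio of -1.89 on soft gel (counting interval -2.32 to -1.49) and -1.56 on stiff gel (-1.86 to -1.28). It was the 1 keratin region that was 2-fold lower on both gels. On soft gel a region at the end of KRT80, chr12:52167980-52176185, was lower by a log2 ratio of -1.26, and 1 inside KRT86, chr12:52303470-52305471, by -1.02, while the strongest regions of both genes stayed under 2-fold.

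The increases were at weak sites. The region chr17:41616515-41618805 between KRT16 and KRT17 was higher by 1.64 on soft gel and 1.36 on stiff gel on the log2 scale, from pileups of 35, 54, 50 and 59 fragments. Most of that ratio comes from the division by list medians of 111, 132, 51 and 56. The region at KRT15 and KRT19 rose by 1.40 on soft gel from 42 to 51 fragments. On stiff gel a region at KRT35 and KRT36 was higher by 1.34, from 55 and 59 fragments, and chr12:52179024-52180095 in KRT80 by 1.1. The ancestral value of each was below its list median, the range in which regions of all genes were mostly higher in selected cells; the median log2 ratio of all such regions was 0.78 on soft gel and 0.58 on stiff gel. At the 29 keratin regions at or above the list median in ancestral cells on soft gel, 6 were higher in selected cells and the median log2 ratio was -0.24, beside -0.07 for all such regions. On stiff gel 5 of 30 were higher, with a median of -0.35 beside -0.18.

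**Figure D4:**
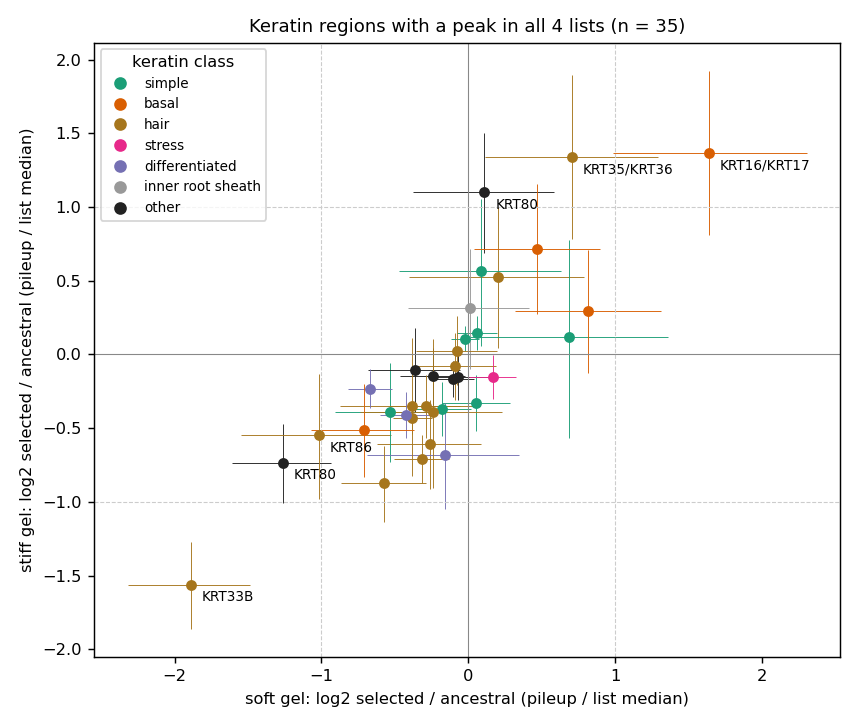
Log2 ratio of relative pileup, selected over ancestral, on soft gel (x) and stiff gel (y) for the 35 keratin regions with a peak in all 4 lists; lines are 95% counting intervals, colours the keratin class, and dashed lines a 2-fold difference. KRT33B stands alone at the lower left at -1.89 and -1.56, and the KRT16/KRT17 region at the upper right at 1.64 and 1.36.

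By class, 11 of 13 regions at hair keratins were lower in selected cells on soft gel, with a median log2 ratio of -0.29, and 13 of 17 on stiff gel, with -0.35. Of all regions 38.9% and 50.3% were lower, and of those at or above the ancestral list median 57.6% and 70.5%, so the share on stiff gel is near that of strong regions at large. Simple keratin regions were lower in 3 of 8 on each gel, with medians of 0.06 and 0.11. Basal keratin regions were higher in 4 of 5 on soft gel, with a median of 0.82, and in 5 of 6 on stiff gel, with 0.51; most of them are the weak sites near KRT15 and KRT17. Over all keratin regions the median log2 ratio was -0.13 on soft gel, beside 0.15 for all regions, and -0.15 on stiff gel, beside -0.00 for all regions. Dividing by the median over regions present in all 4 lists raises the keratin median on stiff gel from -0.15 to 0.02, beside 0.16 for all regions. Of the 35 keratin regions in all 4 lists, 21 were lower in selected cells on both gels (60%, against 36.8% of all such regions) and 10 higher on both (28.6%, against 40.5%).

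Fewer keratin regions passed 2-fold between gels than between populations. In ancestral cells 1 of 44 regions was at least 2-fold higher on stiff gel (0.711% of all regions) and 0 lower (0.0689%). It was the region in KRT10, chr17:40818604-40819711, where the pileup was 112 fragments on soft and 318 on stiff gel, a log2 ratio of 1.26 (counting interval 0.94 to 1.58). In selected cells the same region had 46 and 84 fragments, a log2 ratio of 0.73 (0.20 to 1.29), and whether the 2 ratios differ cannot be tested without replicates. In selected cells 0 of 50 regions passed 2-fold in either direction (0.72% of all regions higher, 0.146% lower). The median keratin log2 ratio of stiff over soft gel was 0.17 in both populations, beside 0.19 and -0.03 for all regions; with the median over regions in all 4 lists the ancestral value becomes -0.05 and the selected value 0.11.

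Long stretches of both clusters had no peak in any list. In the type II cluster the longest, chr12:52583447-52834296, is 251 kb and holds KRT72, KRT73, KRT2, KRT1, KRT77, KRT76, KRT3 and KRT4. The stretch chr12:52521996-52582762, of 60.8 kb, holds KRT71 and KRT74, and chr12:52443105-52496360, of 53.3 kb, holds the 3 KRT6 genes. In the type I cluster chr17:40649184-40803524, of 154 kb, holds KRT222, KRT24 and the inner root sheath genes KRT25 to KRT28. In all, 19 of 55 keratin genes (34.5%) lie wholly in peak-free stretches of at least 50 kb, against 8.59% of all genes. No peak number is skipped in these stretches. Genes at their edges, such as KRT72, KRT28, KRT6A and KRT6B, owe their value to a peak just beyond the stretch.

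The strongest listed region of the type I cluster lies outside the window of any keratin gene. It is chr17:41547030-41550243, 17.8 kb from KRT9 and 1.55 kb from the lncRNA gene LINC00974, and stood at 29.8, 31.5, 29.8 and 31.4, as high as the KRT8 region of the type II cluster. The second, chr17:41403444-41405182, 6.57 kb from KRT31, stood at 11.3, 14.4, 10.5 and 12.1. Both were open in all groups, and neither keratin nearest to them had a peak of its own.

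Genes whose products hold keratin filaments, and those of other filaments, are given beside the keratins. VIM, the intermediate filament gene of mesenchymal cells, stood at 23.4, 27.6, 21.0 and 25.5, a peak height near that of KRT8; of all 9 other cytoplasmic intermediate filament genes 6, 7, 7 and 7 had a peak. Desmosome genes, whose products anchor keratin filaments at cell contacts, had a peak in 11 of 14 in every list, with an exact interval of 49.2% to 95.3% that overlaps that of all keratins, among them JUP at 24.5, 26.9, 25.4 and 28.3 and DSP at 7.51, 12.6, 5.92 and 9.36. Hemidesmosome and plakin genes had one in 8 of 8, with PLEC at 0.694, 0.508, 1.45 and 1.41 beside stretches with skipped numbers. All 13 genes of epithelial regulators, such as GRHL2, KLF5 and ESRP2, had a peak in every list. These shares are counts of short lists and lie beside 86.6% to 87.2% of all genes.

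Of the 6 markers of the cell line, VIM, CD44, AXL, MSN and ZEB1 had a peak in all 4 lists; FOSL1 had one in selected cells on soft gel, at 0.569, and its absence from the other lists is undetermined. Since 86.6% to 87.2% of all genes had a peak, these counts do not tell the line from other cells. Luminal markers, KRT8, KRT18 and KRT19 among them, had a peak in 9, 9, 9 and 8 of 9, and basal and myoepithelial markers in 5, 6, 5 and 5 of 6. The luminal counts include KRT19, whose listed peak lies beside KRT15 and whose own state is undetermined. KRT19 is also the luminal marker without a peak in the selected stiff list. Keratinocyte markers had one in 3, 3, 2 and 2 of 5, hair follicle markers in 1, 1, 2 and 3 of 5 and blood markers in 1, 2, 3 and 3 of 3. Among the keratins of these lists, KRT1, KRT31 and KRT71 had no peak, KRT10 had one in all 4 lists and KRT85 in both selected lists. Whether a change in the mixture of cells has a part in any keratin value was not tested.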

How the data were processed

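ATAC-seq of MDA-MB-231 cells was analysed from 1 deposited peak list for each of 4 groups of 4 samples. The tools named are, per the submitters' processing notes, MACS2 2.2.7.1, Bowtie2 2.4.5, Trimmomatic 0.36, FastQC 0.11.4 and MultiQC 1.1 on GRCh38. The sources used here do not state how the 4 samples of a group were combined, the read filters or the calling options. Per the file headers, each deposited peak has a pileup signal, a fold enrichment (a ratio over background), a −log10 p-value (not used here) and a −log10 q-value. The deposited pileup is a whole number and was not scaled to depth; depth per sample is unknown. The background implied by the authors' fold enrichment was 16.3, 20.2, 13.5 and 12.6 fragments.

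Here, summits were assigned to RefSeq GRCh38.p14 genes, a table without strand, and pileup was divided by the list's median. Peaks that overlapped by at least 1 bp in any list formed 1 region, and log2 ratios carry conditional binomial 95% intervals. Shares carry exact Clopper-Pearson intervals. No test across groups was possible, and the 4 comparisons share lists in pairs. The members, classes, lists and alternatives were chosen with earlier results of these data known. Genes named were every simple and basal keratin, up to 4 members of each other class by highest value, every keratin whose presence differed between lists, up to 4 regions per direction past 2-fold and the strongest region of each cluster; of the partner lists VIM, DSP, JUP, PLEC and up to 4 members whose presence differed; further genes were named after their values were seen. Figures used matplotlib 3.10.9, and computation scipy 1.17.1, pandas 2.3.3 and numpy 2.4.6 in python 3.11.15. On simulated data built on 19974 genes of the ancestral soft list, 200 of 200 planted absent genes and 2000 of 2000 planted 4-fold peaks were recovered. The planting added no noise and fixed this outcome, so it checks the code alone. Floors, skipped numbers and depth were not simulated. Alternatives covered the window, peak strength, assignment, scaling, the fold and 2 settings added after the data were seen.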

Additional observations from a re-analysis of the deposited data

How the results depend on the processing

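No paired analysis was possible because each group has 1 list, in which its 4 samples are combined; the same holds for leaving out a sample, which was not run. Calling floors, skipped peak numbers and unknown depth limit all comparisons between lists.

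The number of keratin genes with a peak stayed within 1.5 times under the wider window, a −log10 q of at least 10, equal list sizes, nearest-gene assignment, any-base overlap and the exclusion of genes at skipped numbers; with the gene body alone it was 13, 16, 15 and 16 in the order of the report. In the comparisons of presence 36 of 64 alternative counts stayed within 1.5 times and 28 did not. With the gene body alone, 3 genes had a peak in selected but not ancestral cells and 1 the reverse on soft gel; the stiff comparison gave 2 and 2, and within selected cells 1 had one on stiff gel alone and 0 on soft gel alone. Within 10 kb the counts were 0 and 7 on soft gel, 0 and 2 on stiff gel, 2 on stiff gel only in ancestral cells and 0 on soft gel only in selected cells. With a −log10 q of at least 10 they were 3 and 7 on soft gel, 2 in selected cells only on stiff gel, 1 on stiff and 1 on soft gel only in ancestral cells, and 2 on soft gel only in selected cells. With each peak given to its nearest gene, the selected stiff list had 2 genes that the ancestral stiff list lacks, and 0 genes were on soft gel alone among selected cells. With any base of a peak in the window, 0 genes were in selected cells only on either gel. Without genes at skipped numbers, 0 were on soft gel only in selected cells. With peaks above a common floor, a setting added after the data were seen, 3 were in selected cells only on soft gel, the stiff lists had 5 that are selected alone and 1 that is ancestral alone, and 0 on stiff and 1 on soft gel only in ancestral cells. The excess of genes in ancestral cells alone on stiff gel is thus lost under this floor, by construction with fewer weak ancestral peaks.

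Class medians moved in 29 of 48 values. Dividing by the median over regions in all 4 lists, a larger divisor by construction, gave 2.38, 3.17, 3.23 and 3.05 for simple, 0.295, 0.348, 0.612 and 0.519 for basal and 0.351, 0.353, 0.553 and 0.570 for hair keratins. The mean of all peaks per gene gave 2.45, 3.39, 2.55 and 2.71 for simple keratins, and for basal keratins 0.408, 0.491 and 0.673 in ancestral soft, ancestral stiff and selected stiff. With the gene body alone, simple keratins stood at 0.514 and 0.727 in ancestral cells, basal keratins at 0, 0.163, 0.755 and 0.634, and hair keratins at 0, 0, 0 and 0. Simple keratins stayed above basal and hair keratins in all lists under each of these settings.

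At 1.5-fold in place of 2-fold, the soft comparison of selected with ancestral cells had 5 keratin regions higher and 5 lower, the stiff one 6 and 7, 5 were higher on stiff gel in ancestral cells, and 4 higher and 1 lower on stiff gel in selected cells. The other 25 of 32 counts of regions, under other scalings and merging within 500 bp among them, stayed within 1.5 times.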

Other observations

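The keratin-associated protein genes, which encode the matrix around hair keratins and lie inside the type I cluster, had a peak in 10, 10, 7 and 8 of 34, a smaller share than the 86.6% to 87.2% of all genes, and 13 of them lie in the peak-free stretch chr17:41141449-41302364 of 161 kb. Of the 9 cornified envelope genes, which encode the outer shell of epidermal cells, 5, 7, 4 and 4 had a peak. IVL had one in ancestral cells alone, at 0.342 and 0.439, SPRR1B at 1.00 and TGM3 at 0.402 in ancestral cells on stiff gel alone, while LORICRIN and SPRR1A had none. Of these, the SPRR1B peak is the one that stands above the floors of the selected lists. Among other cytoplasmic intermediate filament genes, DES, the filament gene of muscle, had no peak in ancestral cells on soft gel and stood at 0.621 in ancestral cells on stiff gel and at 1.14 and 0.839 in selected cells, and NEFL and NEFM of neurons had none.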
